A study of Mus musculus with 14 samples.

Results

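The 3 TGFβ ligand genes (Tgfb1, Tgfb2, Tgfb3), their 3 receptor genes (Tgfbr1, Tgfbr2, Tgfbr3) and the 4 genes for latent TGFβ binding proteins (Ltbp1 to Ltbp4) were followed through bulk RNA sequencing of the mouse aortic valve. These 10 genes were taken by name from a table of 56941 genes, and all 10 had a mean count of at least 10, as did 19145 genes in all. Each of 14 libraries came from the valve of 1 mouse. All mice were C57BL/6J wild-type males, 8 weeks old at the start and fed Breslow Western Diet, the controls included. The 4 Ctrl mice had no drug, and 2 LY mice received the HTR2B antagonist LY272015 by intraperitoneal injection at 3 mg/kg, on a schedule that the labels and the design text give differently. A further 4 AngII mice received angiotensin II at 1000 ng/kg/min from an osmotic pump for 28 days, and 4 AngII+LY mice received both. HTR2B is a serotonin receptor. The submitters' design text has the pumps removed from the AngII and AngII+LY mice 48 h before the end, while the study's own account speaks of a subset. The treatment labels of 4 antagonist mice carry other compound numbers than LY272015, so mice were grouped by title. The design text speaks of 4 mice per group, and 2 LY mice were analysed here. Pairwise comparisons asked how the genes differed with angiotensin II and how they differed when the antagonist was added to it.

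TGFβ is made as a precursor, and its propeptide stays bound to the mature ligand and keeps it inactive. A latent TGFβ binding protein usually joins this complex by disulfide bonds and tethers it to fibrillin and fibronectin in the matrix. Integrins that grip the propeptide, proteases and thrombospondin can free the ligand, which then binds TGFBR2, and TGFBR2 phosphorylates TGFBR1. TGFBR3, also called betaglycan, presents ligand to them and matters most for TGFβ2. In heart valves the pathway is known for its part in cushion formation during development and in activation of interstitial cells and fibrosis later in life.

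The ligand genes differ at the integrin-binding codons of the propeptide, which are shown because they set Tgfb2 apart from Tgfb1 and Tgfb3. Capitals mark the in-frame codons for arginine, glycine and aspartate, with the coding bases on either side, read 5′ to 3′ from GRCm39.
Tgfb1, chr7:25396414-25396599, plus strand: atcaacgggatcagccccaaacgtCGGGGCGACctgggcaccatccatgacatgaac
Tgfb3, chr12:86108915-86108971, minus strand: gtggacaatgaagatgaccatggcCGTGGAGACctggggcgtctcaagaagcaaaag
The Tgfb1 stretch is joined across an intron, and its first capital codon is codon 244 of 390. In Tgfb3 the stretch lies in 1 exon and begins its capitals at codon 261 of 412. No such codon triplet in frame was found among the 414 codons of Tgfb2.

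The 200 bases before the annotated start are shown for Tgfb1, Tgfb2 and Tgfbr1, the ligand most studied in fibrosis, the ligand with the higher mean in AngII mice, and the signalling receptor. Their annotated gene start is the start of the main transcript, so the windows hold no transcribed base of it. Capitals mark the GC box, GGGCGG, on either strand.
Tgfb1, chr7:25386190-25386389, plus strand: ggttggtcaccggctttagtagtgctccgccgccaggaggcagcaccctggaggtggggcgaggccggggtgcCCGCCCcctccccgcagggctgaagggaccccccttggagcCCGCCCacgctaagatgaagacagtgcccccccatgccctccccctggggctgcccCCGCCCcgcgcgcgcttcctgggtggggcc
Tgfb2, chr1:186438295-186438494, minus strand: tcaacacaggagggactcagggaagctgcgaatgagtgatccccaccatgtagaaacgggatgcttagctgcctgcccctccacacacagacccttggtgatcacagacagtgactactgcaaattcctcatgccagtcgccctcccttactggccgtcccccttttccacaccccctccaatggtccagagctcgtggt
Tgfbr1, chr4:47352934-47353133, plus strand: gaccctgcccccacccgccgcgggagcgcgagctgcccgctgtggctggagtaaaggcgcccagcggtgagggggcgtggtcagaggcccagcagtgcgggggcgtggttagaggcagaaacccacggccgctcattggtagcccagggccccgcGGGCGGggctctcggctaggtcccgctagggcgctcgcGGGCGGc
Tgfb1 held 3 GC boxes, Tgfbr1 held 2 and Tgfb2 held none, against 28.6% of 21667 protein-coding promoters of the same length with at least 1. The windows were 75.0%, 75.5% and 57.0% G or C for Tgfb1, Tgfbr1 and Tgfb2, and the median promoter was 52.0%. The TATA box (TATAAA, in 10.1% of promoters), the CRE (TGACGTCA, 1.22%), AP-1 (TGANTCA, 5.17%), the E box (CACGTG, 4.96%) and the palindromic SMAD box (GTCTAGAC, 0.171%), searched on both strands, were not found in these 3 windows.

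In GENCODE vM39 on GRCm39, all 10 are protein-coding genes with a single entry each. The ligand genes are Tgfb1 (ENSMUSG00000002603, chromosome 7 from 25386390 to 25404506), Tgfb2 (ENSMUSG00000039239, chromosome 1 from 186354985 to 186438294) and Tgfb3 (ENSMUSG00000021253, chromosome 12 from 86102756 to 86126301). The receptor genes are Tgfbr1 (ENSMUSG00000007613, chromosome 4 from 47353134 to 47414931), Tgfbr2 (ENSMUSG00000032440, chromosome 9 from 115913361 to 116004800) and Tgfbr3 (ENSMUSG00000029287, chromosome 5 from 107249402 to 107437623). The binding protein genes are Ltbp1 (ENSMUSG00000001870, chromosome 17 from 75312519 to 75699507), Ltbp2 (ENSMUSG00000002020, chromosome 12 from 84829986 to 84923306), Ltbp3 (ENSMUSG00000024940, chromosome 19 from 5790932 to 5808669) and Ltbp4 (ENSMUSG00000040488, chromosome 7 from 27004086 to 27037117). Opposite-strand genes overlap Tgfb2, Tgfb3, Tgfbr1, Tgfbr2, Ltbp2, Ltbp3 and Ltbp4, and a same-strand gene overlaps Tgfbr3. No strand setting of the counting was given in the sources used here, so reads of these partners cannot be told apart.

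Counts on genes came to between 20990655 and 73128220 per library, with the smallest library in AngII 4. The share of counts on mitochondrial genes was 4 to 7.52% for Ctrl and 8.62 to 9.76% for LY mice, then 9.83 to 25.5% for AngII and 10.1 to 20.2% for AngII+LY mice. AngII 3 and AngII 4 stood apart, with 24.7% and 25.5% mitochondrial counts. They also had the steepest fall of counts with gene GC content, a log2 deviation of -0.50 and -0.87 per 10 percentage points, where Ctrl mice had 0 to 0.38. Values without these 2 mice are therefore given for the members and, where they move by over 1.5 times, for the other pathway genes. Genes used as markers of interstitial and endothelial cells were detected in every library. They do not tell the valve's own cells from similar cells of tissue around it. Markers of other tissues were present too, and the summed normalized counts of 10 cardiomyocyte genes came to between 423125 and 2702643.

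Ltbp4 had the highest level of the 10 genes per kilobase of exon. Its product binds fibrillin-1-rich and elastic fibres. In Ctrl mice it reached 9230 ± 1360 normalized counts per kb (SD, n = 4), and its lowest Ctrl mouse, at 7230 per kb, was above the highest Ctrl mouse of every other member. Tgfbr2 (1580 ± 206 per kb) and Ltbp3 (1530 ± 292 per kb) came next and overlapped each other in Ctrl mice. Ltbp2 (1100 ± 340 per kb), Tgfb3 (1040 ± 231 per kb) and Ltbp1 (1030 ± 451 per kb) formed a run of overlapping neighbours below them. Tgfb1 (714 ± 190 per kb), Tgfbr3 (529 ± 66.4 per kb) and Tgfbr1 (484 ± 171 per kb) followed, again overlapping from each to the next. Tgfb2 was last in each Ctrl and LY mouse, at 260 ± 94.6 per kb in Ctrl (SD, n = 4) and 286 ± 44.9 per kb in LY (SD, n = 2). In AngII mice Tgfb2 stood at 531 ± 294 per kb (SD, n = 4), level with Tgfb1 at 534 ± 189 per kb. In AngII 4, Ltbp1 took the first place from Ltbp4.

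**Figure D1:**
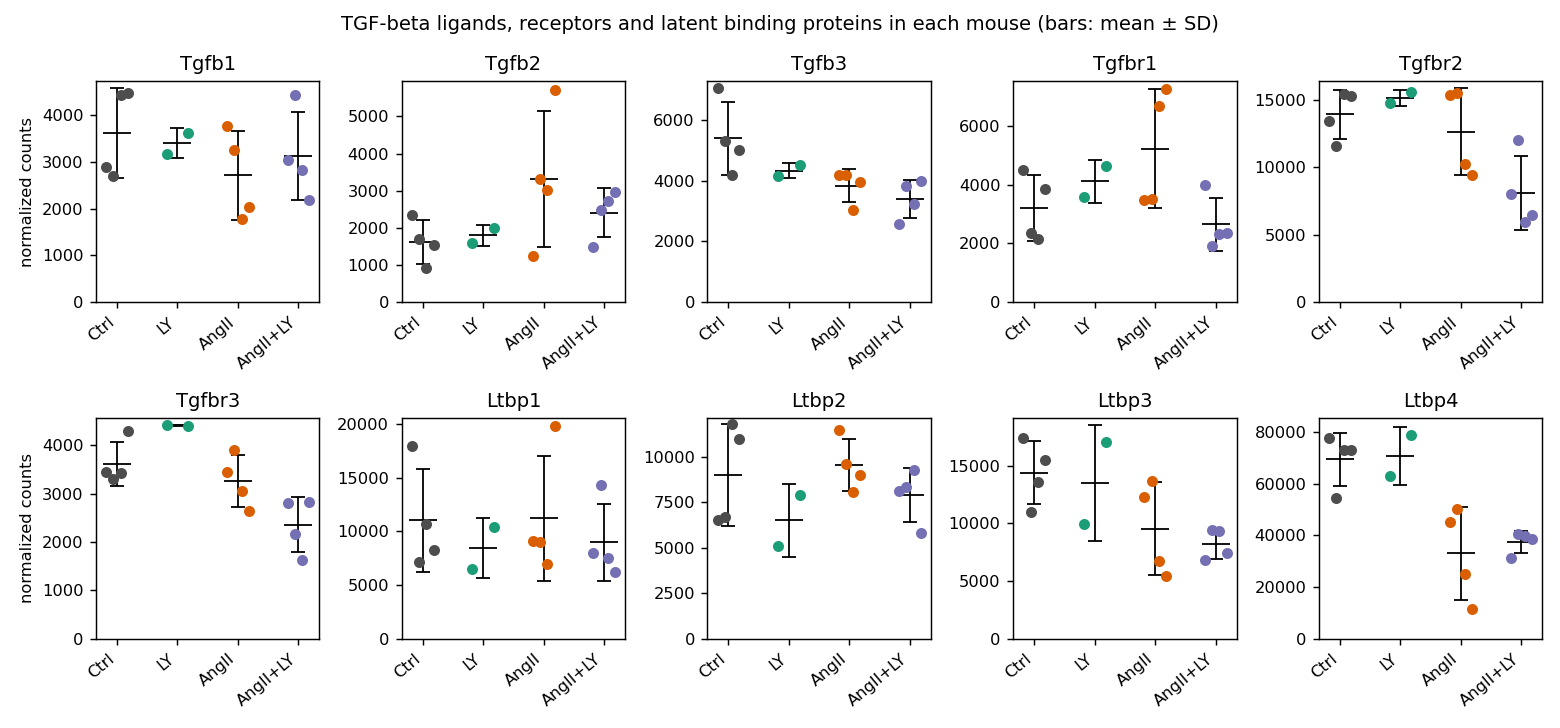
Normalized counts (linear axis from 0) of the 10 genes in each mouse, with Ctrl, LY, AngII and AngII+LY from left to right; points are mice and bars the mean ± SD. Ltbp4 in the 4 AngII mice lay between 11598 and 50227, below the Ctrl range, and Tgfb2 in AngII mice spread from 1246 to 5714.

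None of the 10 genes passed the cut-off (adjusted p under 0.05 and absolute log2 fold change above 0.5) in any comparison by edgeR's quasi-likelihood test, where 0% of all genes tested passed in each. For AngII against Ctrl, 4 members had an unadjusted p under 0.05, against 25.2% of all genes. They were Tgfb2 and Tgfbr1, with higher levels in AngII mice (13.4% of all genes), and Tgfb3 and Ltbp4, with lower levels (11.7%). For AngII+LY against AngII, 3 members had such a p, against 22.5% of all genes, and all 3 were the receptors, lower (12.4%, with 10.1% higher). AngII+LY against Ctrl gave 5 members, against 11% of all genes, all lower (6.14%, with 4.89% higher), and LY against Ctrl gave 0, against 1.39% (0.627% higher, 0.763% lower). Groups that did not overlap were found for 0 members higher (7.46% of all genes) and 2 lower (7.56%) between AngII and Ctrl, and for 0 higher (5.45%) and 0 lower (5.66%) between AngII+LY and AngII. Between AngII+LY and Ctrl they were found for 0 higher (3.27%) and 4 lower (4.89%), and between LY and Ctrl for 1 higher (5.64%) and 0 lower (6.41%). Without AngII 3 and AngII 4, an unadjusted p under 0.05 was left for 0 members higher (4.93% of all genes) and 1 lower (3.65%) between AngII and Ctrl, and for 0 higher (7.41%) and 3 lower (7.52%) between AngII+LY and AngII, namely Tgfbr2, Tgfbr3 and Ltbp3. The median log2 difference of the 10 genes was -0.14 for AngII against Ctrl, beside -0.06 over all genes, and -0.30 for AngII+LY against AngII, beside -0.02 over all genes. DESeq2's Wald test put 2 members past the cut-off for AngII against Ctrl, beside 2648 of all 19145 genes. It put 1 member past it for AngII+LY against AngII, beside 2062 of all genes, and 0 members elsewhere. By limma 0 members passed in each comparison, while 336 of all genes did so between AngII+LY and AngII. Between AngII+LY and Ctrl mice limma's count over all genes was 4, and it was 0 in the rest. Nothing in the labels says how the valves of one group were spread over litters or days, so p-values measure the spread between these mice only.

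Among the ligands, Tgfb2 was the one with a higher mean in AngII mice. Tgfb2 stood at 2353, 1702, 911 and 1548 normalized counts in Ctrl 1 to 4, at 1594 and 1991 in LY 1 and 2, at 1246, 3318, 3011 and 5714 in AngII 1 to 4, and at 1471, 2481, 2720 and 2954 in AngII+LY 1 to 4. AngII 2, 3 and 4 were above every Ctrl mouse, AngII 1 lay inside the Ctrl range, and AngII+LY mice overlapped both groups. The AngII mean was 2.04-fold the Ctrl mean in the fit, a log2 difference of 1.03 (standard error 0.39, edgeR adjusted p = 0.128). Without AngII 1 the difference was 1.30 and passed the cut-off (edgeR adjusted p = 0.0344), as did 1725 of 19162 genes. Without AngII 4 the difference was 0.63. With AngII 3 and AngII 4 both left out it was 0.49 (adjusted p = 0.739). DESeq2 gave 1.08 (adjusted p = 0.0427), and over all 23 alternatives the adjusted p ranged from 0.0344 to 0.739. AngII+LY mice differed from AngII mice by -0.46 (standard error 0.39, edgeR adjusted p = 0.515), with a 95% interval from -1.29 to 0.36, and by 0.08 when AngII 3 and AngII 4 were left out.

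Tgfb3 had a lower mean in AngII mice as counted, and close to no difference after correction for gene GC content (log2 difference -0.05). Its normalized counts were 7067, 5320, 4201 and 5029 in Ctrl 1 to 4, 4151 and 4508 in LY mice, 4183, 4188, 3047 and 3944 in AngII 1 to 4, and 2584, 3822, 3232 and 3976 in AngII+LY 1 to 4. The highest AngII mouse lay just under the lowest Ctrl mouse, so the groups did not overlap. The log2 difference between AngII and Ctrl was -0.49 (standard error 0.19, edgeR adjusted p = 0.137), and -0.37 without AngII 3 and AngII 4. AngII+LY mice were also below every Ctrl mouse, at -0.67 (standard error 0.19, edgeR adjusted p = 0.265). These last 2 comparisons share the Ctrl mice.

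Tgfb1, the most studied ligand in fibrosis, gave overlapping groups throughout. Ctrl mice spanned 2699 to 4485 normalized counts and LY mice 3175 to 3630. AngII mice spanned 1783 to 3777 and AngII+LY mice 2189 to 4439. AngII 3 and AngII 4, at 1783 and 2032, were the lowest of the 14 mice. The log2 difference was -0.42 between AngII and Ctrl (standard error 0.28, edgeR adjusted p = 0.373) and 0.20 between AngII+LY and AngII (standard error 0.28, adjusted p = 0.72). These were -0.04 and -0.17 without AngII 3 and AngII 4, and 0.16 and -0.12 after the GC correction.

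Read as shares of the ligand level per kb, Tgfb2 made up 16.4, 14.9, 8 and 11.8% in Ctrl 1 to 4, and 15.2 and 16.8% in LY mice. The shares in AngII 1 to 4 were 11.4, 26.8, 34 and 44.1%, and those in AngII+LY 1 to 4 were 17.7, 19.8, 27 and 28.3%. AngII+LY mice were thus all above the Ctrl range, and AngII mice spanned from within it to the highest share of all. Tgfb3 had the largest mean share in Ctrl mice, at 51.3 ± 7.27% (SD, n = 4), and stood at 41.1 ± 3.85% in AngII mice (SD, n = 4). The summed ligand level per kb overlapped between groups, at 1824 to 2300 in Ctrl and 1417 to 2069 in AngII mice.

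**Figure D2:**
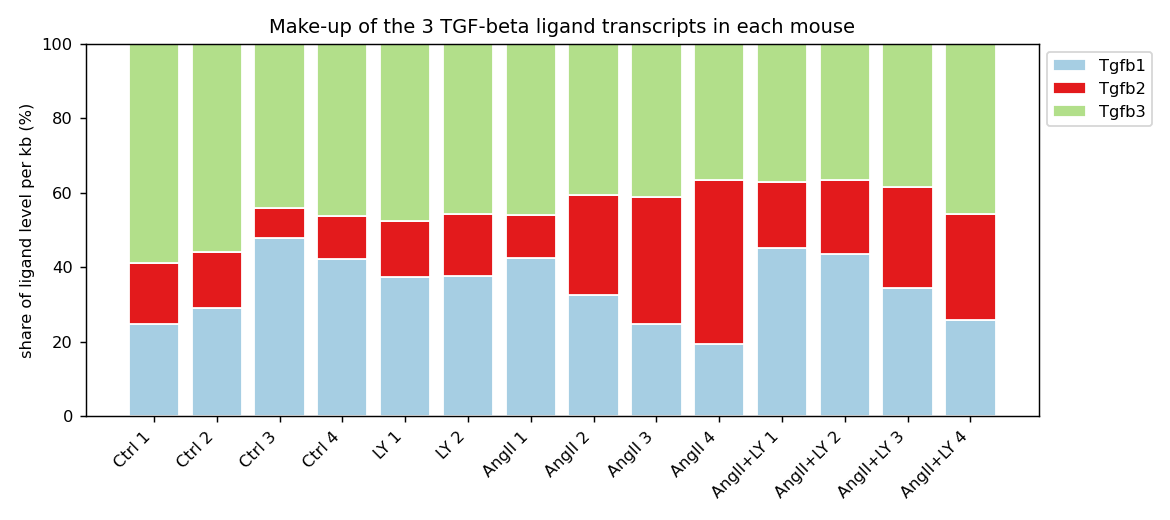
Share of each ligand gene in the summed ligand level per kb of exon (%), stacked to 100% for each of the 14 mice. The red Tgfb2 segment runs from 8 to 16.4% in Ctrl mice and from 11.4 to 44.1% in AngII mice.

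The receptors were lower in AngII+LY mice than in AngII mice, all 3 in the same direction and none past the cut-off. Tgfbr1, the signalling kinase, had 4480, 2352, 2162 and 3838 normalized counts in Ctrl 1 to 4, 3583 and 4634 in LY mice, 3477, 3492, 6688 and 7243 in AngII 1 to 4, and 3972, 1924, 2309 and 2358 in AngII+LY 1 to 4. AngII 3 and AngII 4 were above every other mouse, while AngII 1 and AngII 2 lay inside the Ctrl range and below AngII+LY 1. The log2 difference was 0.70 for AngII against Ctrl (standard error 0.32, edgeR adjusted p = 0.19) and -0.98 for AngII+LY against AngII (standard error 0.32, adjusted p = 0.108). Without AngII 3 and AngII 4 these became 0.12 and -0.40. DESeq2 placed the second one past the cut-off (adjusted p = 0.0335), within a range from 0.0335 to 0.953 over 23 alternatives.

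Tgfbr2, the ligand-binding kinase, had 13406, 11586, 15446 and 15276 normalized counts in Ctrl 1 to 4 and 14724 and 15537 in LY mice. It had 15323, 15501, 10248 and 9453 in AngII 1 to 4, and 8016, 11978, 5942 and 6475 in AngII+LY 1 to 4. Of the AngII+LY mice, 3 were below all other mice, and AngII+LY 2 lay among the rest. AngII+LY differed from AngII by -0.64 on the log2 scale (standard error 0.24, edgeR adjusted p = 0.139) and from Ctrl by -0.78 (standard error 0.24, adjusted p = 0.287). Without AngII 3 and AngII 4 the first of these was -0.93 (adjusted p = 0.193). AngII and Ctrl mice differed by -0.14 (95% interval from -0.65 to 0.37), and by 0.15 without AngII 3 and AngII 4.

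Tgfbr3, the co-receptor, had 3442, 3306, 3437 and 4296 normalized counts in Ctrl 1 to 4, 4428 and 4410 in LY mice, 3447, 3900, 3065 and 2647 in AngII 1 to 4, and 2804, 2173, 1630 and 2829 in AngII+LY 1 to 4. AngII+LY mice were all below the Ctrl range, AngII 4 fell among them, and both LY mice were just above the highest Ctrl mouse. The log2 difference was -0.47 for AngII+LY against AngII (standard error 0.19, edgeR adjusted p = 0.173), -0.62 against Ctrl (standard error 0.19, adjusted p = 0.288) and 0.29 for LY against Ctrl (standard error 0.23, adjusted p = 1). With AngII 3 and AngII 4 left out, the first of these was -0.64.

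The antagonist was present without angiotensin II in the LY mice, so its difference could be compared with and without angiotensin II. All 3 receptors had a negative interaction on the log2 scale, and none passed the cut-off. It was -1.34 for Tgfbr1 (standard error 0.50, edgeR adjusted p = 0.307), -0.76 for Tgfbr2 (standard error 0.37, adjusted p = 0.396) and -0.76 for Tgfbr3 (standard error 0.30, adjusted p = 0.327). An unadjusted p under 0.05 was found for Tgfbr1 and Tgfbr3, both negative, against 13.3% of all genes in either direction (5.66% positive, 7.64% negative). The interaction without AngII 3 and AngII 4 was -0.76 for Tgfbr1, which then had no unadjusted p under 0.05, -1.05 for Tgfbr2 and -0.93 for Tgfbr3, which both had one. Only 2 LY mice stand behind these values.

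Summed per kb, the receptors came to 2704, 2156, 2585 and 2945 normalized counts in Ctrl 1 to 4 and 2863 and 3111 in LY mice. They came to 2771, 2860, 2623 and 2556 in AngII 1 to 4, and to 1921, 1970, 1263 and 1506 in AngII+LY 1 to 4. Each AngII+LY mouse was below each mouse of the other 3 groups, while AngII mice stayed inside the Ctrl range. How often sums of other genes part this way was not counted. Of single genes, 5.66% were lower without overlap between AngII+LY and AngII, and 4.89% between AngII+LY and Ctrl. Genes used as markers of interstitial cells, the fibroblast-like cells of the leaflet, also had lower sums in AngII+LY than in AngII mice. These genes do not tell leaflet cells from similar cells of tissue around the leaflet. Over the AngII mice the 7 interstitial genes summed to 602174 to 681167 normalized counts, and over the AngII+LY mice to 225084 to 381362. Ctrl mice gave 375296 to 726328 and LY mice 457168 to 789496, and the highest AngII+LY mouse lay just above the lowest Ctrl mouse. All 7 had negative log2 differences for AngII+LY against AngII, 5 of them at an unadjusted p under 0.05, against 12.4% of all genes. Those named again below are Lum (38% exon GC), Dcn (38.2%), Postn (39.2%) and Col1a2 (44.9%). Over all genes below 45% GC the median in this comparison was -0.49. After the GC correction they were at -0.86, -0.37, -0.94 and -0.54, in that order. Dcn alone averaged 357900 normalized counts over AngII and 180100 over AngII+LY mice, a large part of the sums. None of the 7 interstitial genes was at 0 in any library. The 10 cardiomyocyte genes went the other way and were all higher, at 1092709 to 2702643 for AngII+LY against 423125 to 1112270 for AngII. In bulk samples, fewer cells of a type and less RNA per cell cannot be told apart. With the interstitial score as a covariate the receptor differences between AngII+LY and AngII were -0.32 for Tgfbr1, -0.47 for Tgfbr2 and -0.23 for Tgfbr3. Their standard errors were 0.44, 0.40 and 0.31. The highest interstitial score with both drugs was 14.75, and the lowest with angiotensin II alone was 15.23. Score and treatment therefore cannot be separated in this fit. With the cardiomyocyte score the receptor differences were -0.71, -0.35 and -0.47, with standard errors of 0.40, 0.26 and 0.25. The part that cell composition had in these differences was not tested.

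**Figure D3:**
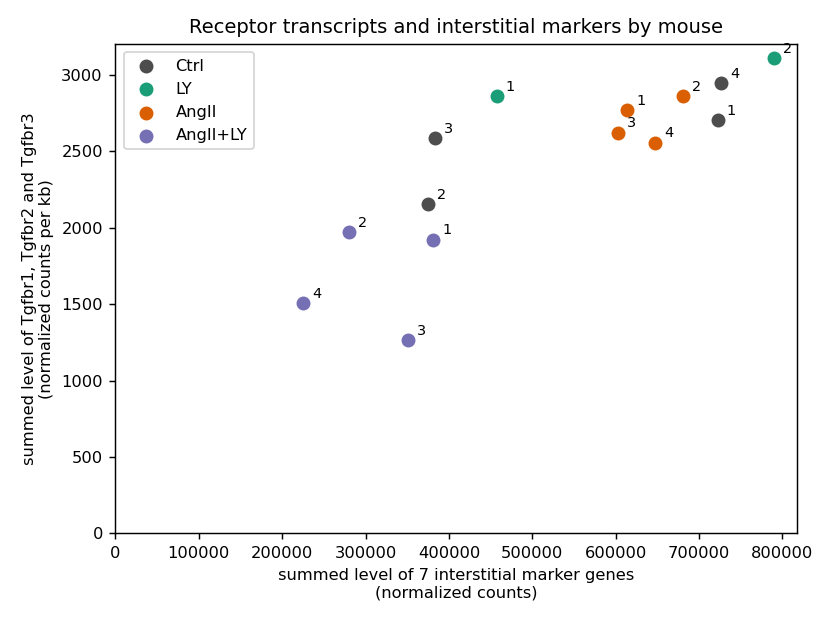
Summed level of Tgfbr1, Tgfbr2 and Tgfbr3 (normalized counts per kb) against the summed level of 7 interstitial marker genes (normalized counts) in each of the 14 mice, numbered within their group. The AngII+LY mice sit at the lower left, at 1263 to 1970 per kb, and the AngII mice at 2556 to 2860 per kb.

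The other marker lists are given by their summed normalized counts, in the order Ctrl, LY, AngII, AngII+LY. Endothelial genes (6) spanned 56175 to 126135, 90581 to 95997, 88823 to 127256 and 57116 to 143427. Smooth muscle genes (6) spanned 25917 to 456242, 38621 to 44632, 22914 to 57276 and 61648 to 211693. The Ctrl maximum belonged to Ctrl 1, which was also the highest Ctrl mouse for Tgfb2, Tgfb3, Tgfbr1, Ltbp1, Ltbp3 and Ltbp4. Adipocyte genes (7) spanned 7443 to 17156, 6054 to 14089, 1479 to 6203 and 2088 to 7730. Macrophage genes (6) spanned 4175 to 14513, 7846 to 9604, 4033 to 6256 and 5146 to 6557. Erythroid genes (5) spanned 457439 to 1494575, 798323 to 2017263, 535925 to 1733828 and 806273 to 2563904. The adipocyte sums of AngII mice were thus all below the Ctrl range, while those of AngII+LY mice reached just into it. Both groups overlapped the LY mice. No marker was at 0 throughout a group. The part of these cell types in the members' differences was not tested.

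Of the binding proteins, Ltbp4 was lower in both angiotensin II groups than in Ctrl mice, and Ltbp3 had lower means there as counted. Ltbp4 had 77599, 54528, 72880 and 73179 normalized counts in Ctrl 1 to 4, 62824 and 78744 in LY mice, 45224, 50227, 25131 and 11598 in AngII 1 to 4, and 31378, 40722, 39589 and 38449 in AngII+LY 1 to 4. All 8 mice given angiotensin II were below all 6 mice without it, and AngII 4 was the lowest of all. The share of all genes that part this way was not counted. Pairwise, 7.56% of all genes were lower without overlap between AngII and Ctrl, and 4.89% between AngII+LY and Ctrl. The AngII level was 2.10-fold lower than Ctrl, a log2 difference of -1.07 (standard error 0.34, edgeR adjusted p = 0.0897). It was -0.79 without AngII 4 and -0.54 without both AngII 3 and AngII 4, and DESeq2 put it past the cut-off (-1.06, adjusted p = 0.0139). Over 23 alternatives the adjusted p ranged from 0.0139 to 0.563. AngII+LY differed from Ctrl by -0.89 (standard error 0.34, edgeR adjusted p = 0.36) and from AngII by 0.18 (95% interval from -0.54 to 0.91), or by -0.35 when AngII 3 and AngII 4 were left out.

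Ltbp3, whose product is needed for secretion of latent ligand in bone and other tissues, had 17428, 11014, 13567 and 15490 normalized counts in Ctrl 1 to 4 and 9966 and 17028 in LY mice. It had 12233, 13649, 6757 and 5466 in AngII 1 to 4, and 6776, 9408, 9308 and 7385 in AngII+LY 1 to 4. AngII 1 and AngII 2 lay inside the Ctrl range and AngII 3 and AngII 4 far below it, while all AngII+LY mice were below it. The log2 difference from Ctrl was -0.59 in AngII (standard error 0.29, edgeR adjusted p = 0.214) and -0.81 in AngII+LY mice (standard error 0.29, adjusted p = 0.337). Without AngII 3 and AngII 4 the first was -0.15. After the GC correction the first was -0.03 and the second -0.56.

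Ltbp1, the main partner of latent TGFβ1, spanned 7182 to 17946 normalized counts for Ctrl, 6493 to 10457 for LY, 7008 to 19880 for AngII and 6256 to 14287 for AngII+LY. AngII 4 and Ctrl 1 were the highest, and the groups overlapped. Ltbp2, which does not bind latent TGFβ covalently and sits on microfibrils, spanned 6507 to 11767 for Ctrl, 5088 to 7892 for LY, 8068 to 11473 for AngII and 5821 to 9285 for AngII+LY. For AngII against Ctrl the log2 difference was 0.03 for Ltbp1 (95% interval from -0.78 to 0.83) and 0.09 for Ltbp2 (95% interval from -0.43 to 0.60). Leaving out AngII 3 and AngII 4 gave -0.29 and 0.23.

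Exon GC content moved with the differences between AngII and the other groups. Over all genes tested, the median log2 difference between AngII and Ctrl was 0.59 below 45% GC, 0.04 from 45 to 50%, -0.38 from 50 to 55% and -0.52 above 55%. The members covered this span. Tgfbr1 (42.8%) and Tgfb2 (46.5%), the most AT-rich, were the 2 with the highest positive differences, and Ltbp3 (58.4%) and Ltbp4 (60.3%), the most GC-rich, were the 2 with the lowest. For AngII+LY against AngII the medians ran the other way, from -0.49 below 45% to 0.39 above 55%.

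**Figure D4:**
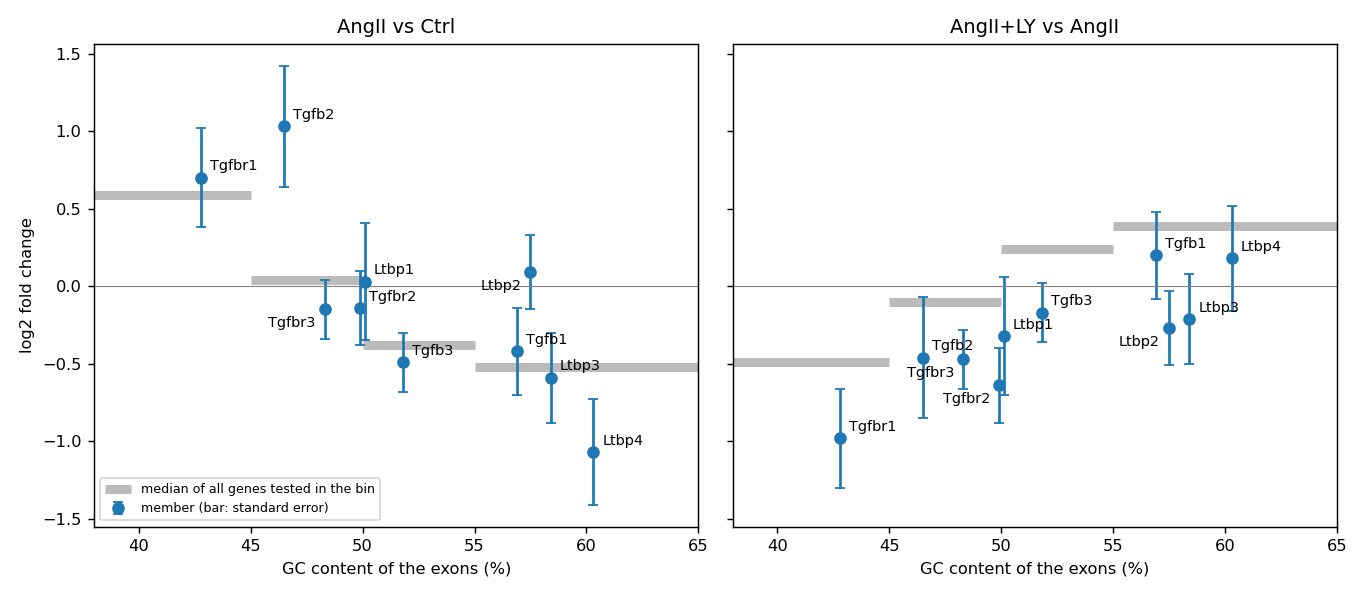
Log2 difference of each member (points, bars are standard errors) against the GC content of its exons (%), for AngII against Ctrl on the left and AngII+LY against AngII on the right; grey bars are medians of all genes in 4 GC bins. On the left, Tgfb2 lies above its bin's median of 0.04. Tgfb1, Tgfbr1, Ltbp1 and Ltbp2 also lie above theirs there, and the other members lie below. On the right, every member lies below the median of its bin.

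When each library was corrected for gene GC content, the median of all genes for AngII against Ctrl moved by 0.17, from -0.06 to 0.11, and 0 members passed the cut-off by edgeR. Tgfb2 was at 1.05 (standard error 0.39, edgeR adjusted p = 0.223). Ltbp4 came to -0.57 (standard error 0.22, adjusted p = 0.25), Tgfb3 to -0.05, Ltbp3 to -0.03, Tgfbr1 to 0.38 and Tgfb1 to 0.16. Ltbp2 came to 0.74 (standard error 0.29, adjusted p = 0.257). Of the members, 2 then had an unadjusted p under 0.05 and were higher (11.2% of all genes), and 1 was lower (3.52%).
For AngII+LY against AngII the corrected differences were -0.56 for Tgfbr1 (standard error 0.26, edgeR adjusted p = 0.331), -0.69 for Tgfbr2 (standard error 0.22, adjusted p = 0.173) and -0.45 for Tgfbr3 (standard error 0.16, adjusted p = 0.208). Ltbp2 came to -0.67 and Ltbp3 to -0.53. With this correction 4 members were lower at an unadjusted p under 0.05 (6.42% of all genes) and 0 were higher (8.96%), and the median of the 10 genes was -0.46 beside 0.01 over all genes.

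**Figure D5:**
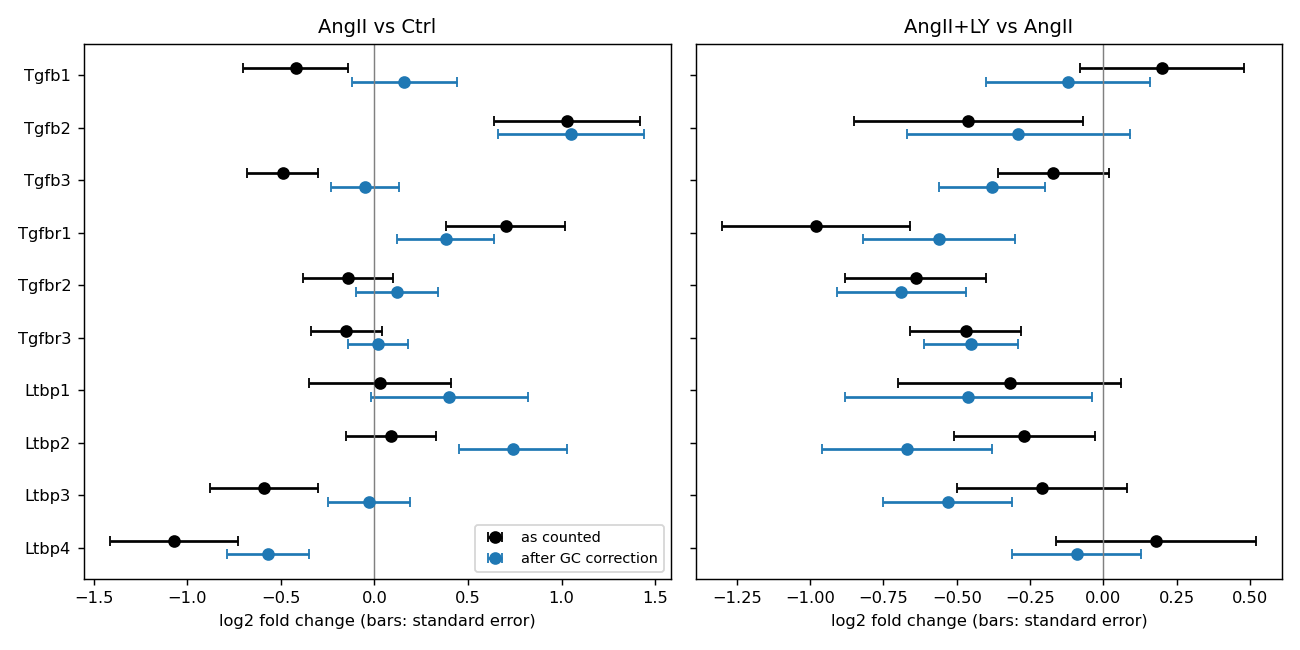
Log2 difference of each member (points, bars are standard errors) as counted (black) and after correction for gene GC content (blue), for AngII against Ctrl on the left and AngII+LY against AngII on the right. After correction Tgfb2 stands at 1.05 and Ltbp2 at 0.74 on the left. On the right every member has a negative difference after correction. The 3 receptors stand there between -0.69 and -0.45, Ltbp2 at -0.67 and Ltbp3 at -0.53.

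The other genes of the pathway were taken from 7 lists, and 0 of them passed the cut-off by edgeR in any comparison. The count was also 0 without AngII 3 and AngII 4, for AngII against Ctrl and for AngII+LY against AngII. The first holds co-receptors and endothelial receptors. For AngII against Ctrl 0 of its 6 genes had an unadjusted p under 0.05, against 25.2% of all genes. The smallest p belonged to Bambi, a decoy receptor (log2 difference -0.77, standard error 0.37, adjusted p = 0.208), and Cd109, a TGFβ co-receptor (0.79, standard error 0.39, adjusted p = 0.223). The Bambi difference was -0.43 without AngII 3 and AngII 4. After the GC correction Bambi was at -0.93 and Cd109 at 0.60. Between AngII+LY and AngII, Cd109 was at -1.16 (standard error 0.39, adjusted p = 0.116) and the endothelial receptor Acvrl1 at 0.70 (standard error 0.27, adjusted p = 0.142). These were -0.83 and 0.37 after the GC correction.

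Among 5 SMAD genes, the transducers and inhibitors of the signal, 0 had an unadjusted p under 0.05 for AngII against Ctrl. Smad2, a receptor-activated SMAD, was at 0.40 (standard error 0.21, edgeR adjusted p = 0.255), and Smad7, an inhibitory SMAD, at -0.32 (standard error 0.20, adjusted p = 0.324; -0.17 without AngII 3 and AngII 4). After the GC correction Smad2 was at 0.37 and Smad7 at 0.30. For AngII+LY against AngII, 2 genes had such a p and were lower (12.4% of all genes). They were Smad2 at -0.54 (standard error 0.21, edgeR adjusted p = 0.155) and the common partner Smad4 at -0.39 (standard error 0.18, adjusted p = 0.221). After the GC correction each was at -0.33, and 0 SMAD genes had such a p (6.42% of all genes lower, 8.96% higher). Among 10 SMAD repressors, ubiquitin ligases and other regulators of the signal, 9 could be tested. Of these, 3 had such a p with higher levels for AngII against Ctrl (13.4% of all genes). For AngII+LY against AngII 4 had one with lower levels (12.4% of all genes). Zfyve9, which brings SMAD2 to the receptor, was at 1.05 (standard error 0.38, adjusted p = 0.113) in the first comparison and -1.09 (standard error 0.38, adjusted p = 0.118) in the second, and at 0.37 and -0.41 without AngII 3 and AngII 4. The repressor Skil was at 0.67 in the first (standard error 0.27, adjusted p = 0.145), and the ubiquitin ligase Smurf2 at -0.84 in the second (standard error 0.28, adjusted p = 0.11). After the GC correction Zfyve9 was at 1.01 and -0.89, Skil at 0.28 and Smurf2 at -0.46. The counts with such a p were then 1 higher in the first comparison (11.2% of all genes). In the second they were 3 lower (6.42%) and 1 higher (8.96%).

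The genes that process or activate latent TGFβ held the smallest adjusted p of these lists, with 15 of 16 tested. For AngII against Ctrl, 3 were higher (13.4% of all genes) and 2 lower (11.7%) at an unadjusted p under 0.05. Nrros, which anchors latent TGFβ on macrophages and microglia, averaged 961.7 ± 439.1 normalized counts over Ctrl and 268.7 ± 87.63 over AngII mice (SD, n = 4 each). These groups did not overlap, and 7.56% of all genes were lower in this way. The log2 difference of Nrros came to -1.83 (standard error 0.38, edgeR adjusted p = 0.0573). With the GC correction it was -1.47. The 6 macrophage genes above did not move together in the same comparison, where 4 were lower and 2 higher, with a list median of -0.69. Of these, 3 had an unadjusted p under 0.05, all lower (11.7% of all genes). The part of macrophages in the Nrros difference was not tested. Itgav encodes the αv subunit of integrins that bind the arginine, glycine and aspartate encoded by the codons shown above for Tgfb1 and Tgfb3. It averaged 5335 ± 1363 normalized counts over Ctrl, 10150 ± 1683 over AngII and 4685 ± 1322 over AngII+LY mice (SD, n = 4 each). Its AngII mice were above all Ctrl mice, as for 7.46% of all genes, and above all AngII+LY mice, as for 5.66%. The share of genes with both was not counted. The log2 difference of Itgav was 0.93 for AngII against Ctrl (standard error 0.24, edgeR adjusted p = 0.0601) and -1.12 for AngII+LY against AngII (standard error 0.24, adjusted p = 0.0588). After the GC correction these were 0.71 and -0.74, and the exons of Itgav are 43.9% GC. Thbs1, whose product thrombospondin-1 can activate latent TGFβ, was at -1.32 for AngII+LY against AngII (standard error 0.37, adjusted p = 0.0772) and -1.41 after the correction. In that comparison 3 genes of the list were lower (12.4% of all genes) and 1 higher (10.1%) at an unadjusted p under 0.05.

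The 8 matrix genes that hold the latent complex were 2 higher and 2 lower at an unadjusted p under 0.05 in each of these comparisons. Of all genes, 13.4% were higher and 11.7% lower for AngII against Ctrl, and 10.1% and 12.4% for AngII+LY against AngII. Fbn1, for fibrillin-1, was at 0.73 for AngII against Ctrl (standard error 0.25, edgeR adjusted p = 0.103) and -0.82 for AngII+LY against AngII (standard error 0.25, adjusted p = 0.0894), and at 1.24 and -1.07 after the GC correction. The counted values of Fbn1 were 0.48 and -0.58 without AngII 3 and AngII 4. Fn1, for fibronectin, was at -0.63 in the first (standard error 0.21, adjusted p = 0.0998), and at -0.47 after the GC correction. Fbn2 was at 2.91 in the second (standard error 0.86, adjusted p = 0.0852), from 40.59 ± 32.18 normalized counts in AngII to 310.2 ± 435.3 in AngII+LY mice, a spread larger than its mean.

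Of 5 proteoglycans that bind TGFβ, 1 was higher at an unadjusted p under 0.05 for AngII against Ctrl (13.4% of all genes). For AngII+LY against AngII 4 were lower (12.4% of all genes). Lum, for lumican, was at 0.79 (standard error 0.32, edgeR adjusted p = 0.145) and -1.46 (standard error 0.32, adjusted p = 0.0588) in these comparisons. After the GC correction Lum was at 0.20 and -0.86. Fmod, for fibromodulin, was at -0.70 in the first (standard error 0.33, adjusted p = 0.203; -0.22 without AngII 3 and AngII 4), and Dcn, for decorin, at -0.99 in the second (standard error 0.29, adjusted p = 0.0848). After the GC correction these were -0.25 and -0.37. With it, 0 genes of the list had such a p in the first comparison, and 3 were lower in the second (6.42% of all genes). Lum and Dcn also stand in the interstitial list above. Of 20 genes that TGFβ is known to induce, 3 had such a p with higher levels (13.4% of all genes) and 4 with lower levels (11.7%) for AngII against Ctrl. For AngII+LY against AngII these were 0 (10.1% of all genes) and 6 (12.4%). Spp1, for osteopontin, was at 2.95 in the first (standard error 0.80, adjusted p = 0.0632) (1.69 without AngII 3 and AngII 4) and Acta2, a smooth muscle and myofibroblast actin, at -3.31 (standard error 1.09, adjusted p = 0.0946). Its Ctrl mean of 84340 ± 134500 normalized counts (SD, n = 4) had a spread larger than itself, and Acta2 stands in the smooth muscle list whose sum was highest in Ctrl 1. Postn, for periostin, was at -1.51 (standard error 0.43, adjusted p = 0.0793) and Col1a2, a collagen I chain, at -0.82 (standard error 0.27, adjusted p = 0.108) for AngII+LY against AngII, and both stand in the interstitial list. With AngII 3 and AngII 4 left out, 1 gene had such a p with a higher level (4.93% of all genes) and 1 with a lower level (3.65%) in the first comparison. In the second these were 0 (7.41% of all genes) and 4 (7.52%). The median over the 20 genes was -0.15 and -0.52 in the 2 comparisons, beside -0.06 and -0.02 over all genes. Without AngII 3 and AngII 4 these medians were -0.01 and -0.20, beside -0.05 and -0.02 over all genes. After the GC correction they were 0.04 and -0.31, beside 0.11 and 0.01 over all genes. Spp1 was then at 2.62 and Acta2 at -3.26 in the first comparison, and Postn at -0.94 and Col1a2 at -0.54 in the second.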

How the data were processed

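The authors checked the reads of 14 libraries with FastQC 0.12.1, trimmed them, aligned them to GRCm39 with HISAT2, and counted them with featureCounts. The deposited table is named as normalized counts, with no header stating a unit; it was treated as raw counts per gene because its values are whole numbers and library totals differ, and all tests depend on this. The annotation, the strand setting and the versions of the aligner and counter are not given in the sources used here. Here, genes averaging 10 counts or more were kept, scaled by TMM and tested by edgeR 4.0.16 quasi-likelihood F tests (R 4.3.3), in 1 fit of the 4 groups. Adjusted p-values are Benjamini-Hochberg over 19145 genes. Normalized counts are counts divided by each library's TMM-adjusted size, itself taken relative to the average. GC correction used a loess fit (span 0.3) per library, on exons of GENCODE vM39, which matched 56323 of 56941 gene IDs. DESeq2 1.42.0, limma 3.58.1 on log2(normalized count + 1), other filters and scalings, marker scores as covariates and left-out mice were alternatives. The code was tested on simulated data. No pair of libraries was identical. Named genes were all 10 members and, from each other list, genes past the cut-off and the 2 with the smallest p for AngII against Ctrl and for AngII+LY against AngII. The members and lists were chosen with earlier results of these data known. The counts behind each value limit precision for counting error only.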

Additional observations from a re-analysis of the deposited data

Results flagged for a closer look

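In 30 sets of 4 mice (10 genes, 3 groups), a mouse far from the other 3 was found in 2 by Dixon's test, which chance alone gives in about 1 of 20. Tgfbr3 was 4296 normalized counts in Ctrl 4, where the nearest of the others had 3442. Ltbp1 was 19880 normalized counts in AngII 4, the smallest library, where the nearest had 9074; without AngII 4 the Ltbp1 difference between AngII and Ctrl was -0.40. The difference that the antagonist made with and without angiotensin II had an unadjusted p under 0.05 for Tgfbr1 (interaction -1.34, edgeR adjusted p = 0.307) and for Tgfbr3 (-0.76, edgeR adjusted p = 0.327). Neither passed the adjustment. Without AngII 3 and AngII 4 they were -0.76 for Tgfbr1, which then had no unadjusted p under 0.05, and -0.93 for Tgfbr3. After the GC correction these were -0.85 for Tgfbr1 and -0.78 for Tgfbr3.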

How the results depend on the processing

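The number of members past the cut-off stayed at 0 in each comparison except with DESeq2, which gave 2 for AngII against Ctrl (Tgfb2, Ltbp4) and 1 for AngII+LY against AngII (Tgfbr1), and when single mice were left out, which gave 0 to 1 for AngII against Ctrl (1 without AngII 1, Tgfb2) and 0 elsewhere. Over all genes DESeq2 put 2648 past it for AngII against Ctrl, 2062 for AngII+LY against AngII and 343 for AngII+LY against Ctrl. It put 21 past it for LY against Ctrl and 210 for the interaction, where edgeR's main fit put 0. The cause was not tested. EdgeR's own count moved with the filter and the mice. For AngII against Ctrl it was 975 of 13619 genes at a mean count of at least 100, and 123 of 32619 with no filter. For AngII+LY against AngII these were 514 and 1. Leaving out AngII 1, AngII 2 or Ctrl 4 gave 1725, 382 and 805 for AngII against Ctrl. Without AngII 1 it was 844 for AngII+LY against AngII. Same-numbered mice of different groups correlated by -0.43 to 0.41 over 18 pairs, 5 of them over 0.1, so the numbers were not taken to pair the mice; with the replicate number as a block 0 members passed, and Tgfb2 came to 0.88 and Ltbp4 to -1.19 for AngII against Ctrl. The interstitial covariate and the fit without AngII 3 and AngII 4 were chosen after seeing the data. Interstitial scores of AngII+LY mice were all below those of AngII and of Ctrl mice. In those comparisons the interstitial covariate therefore cannot be separated from treatment.
Directions turned 21 times in 230 values for AngII against Ctrl, 13 in 230 for AngII+LY against AngII, 10 in 220 for AngII+LY against Ctrl and 12 in 200 for LY against Ctrl, none past the cut-off. For AngII against Ctrl the GC correction gave Tgfb1 0.16, Tgfbr2 0.12 and Tgfbr3 0.02, and with the block 0.15, 0.09 and 0.02. Leaving out AngII 3 and AngII 4 gave Tgfbr2 0.15, Tgfbr3 0.02 and Ltbp1 -0.29. The adipocyte covariate gave Tgfbr3 0.02, Ltbp1 -0.60 and Ltbp2 -0.28. Ltbp1 was also -0.01 with no filter, -0.03 with the block and -0.12 with the cardiomyocyte covariate. Single mice left out gave Ltbp1 -0.40 to 0.36 (-0.13 without Ctrl 2, -0.09 without Ctrl 4) and Ltbp2 -0.04 to 0.24 (-0.03 without Ctrl 2, -0.02 without AngII 1).
For AngII+LY against AngII the GC correction gave Tgfb1 -0.12 and Ltbp4 -0.09, and with the block -0.10 and -0.08. Leaving out AngII 3 and AngII 4 gave Tgfb1 -0.17, Tgfb2 0.08 and Ltbp4 -0.35. The cardiomyocyte covariate gave Ltbp1 0.40 and Ltbp3 0.18, and the interstitial one Ltbp3 0.51. Single mice left out gave Ltbp1 -0.61 to 0.11 and Ltbp4 -0.10 to 0.46 (the ends past zero without AngII 4) and Ltbp3 -0.41 to 0.01 (without AngII 2).
For AngII+LY against Ctrl the GC correction gave Tgfb1 0.04 and Ltbp2 0.07, and with the block 0.04 and 0.15. The cardiomyocyte covariate gave Tgfb1 0.01 and Ltbp1 0.28, the adipocyte one Tgfbr1 0.09, and the interstitial one Tgfbr1 0.38 and Ltbp1 0.01. Single mice left out gave Ltbp1 -0.59 to 0.05 (without Ctrl 1).
For LY against Ctrl single mice left out gave Tgfb1 -0.21 to 0.03 (0.02 without Ctrl 3, 0.03 without Ctrl 4) and Tgfb2 -0.06 to 0.37 (-0.06 without Ctrl 3, -0.03 without LY 2). The block gave Tgfbr2 -0.08 and Ltbp4 -0.20. Ltbp3 was 0.01 with the GC correction, 0.01 without Ctrl 1, and -0.53 to 0.24 over single mice left out (0.24 without LY 1). Ltbp4 was -0.03 with the interstitial covariate, -0.07 without Ctrl 2 and -0.15 to 0.18 over single mice left out (-0.15 without LY 2).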
